A study of Mus musculus with 20 samples.

Results

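The comparison described here is the interaction of stimulation and phase in a time course of mouse cells labelled as spleen: the stimulated minus untreated difference in mRNA at 12, 24 and 48 h (the late phase) set against the same difference at 2, 3 and 6 h (the middle phase). It compares 12 of the 20 libraries of the series, chosen by their labelled time and treatment, with the stimulated and the untreated library of each time taken as a pair. The fit held the 18 libraries after 0 min, so those from before 2 h also entered the estimate of spread behind each SE and p-value. The stimulated cells received LPS, IL4 and TGFb together, and the untreated cells received none of the 3 agents. The series followed 10 times from 0 min to 48 h in 2 mice, 1 treated and 1 untreated, with 1 poly-A library per time and arm. No strain, age, genotype or cell sorting step is named in the labels, and the submitters drew small RNA for other libraries from the tubes that gave this mRNA.

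Because each arm was 1 animal, arm and animal cannot be told apart, and the p-values measure the spread between times and not between animals. A difference between the animals that stayed constant over time, such as a 0 min difference that persisted unchanged, cancels in the late minus middle contrast by construction. A difference between the animals that grew or shrank between the phases does not cancel. Contrasts are given on the log2 scale with their standard error (SE), each from 3 times in each phase.

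As background, LPS is sensed by TLR4, which signals to NF-kB and to MAP kinases within minutes. IL-4 acts through its receptor and STAT6, and TGF-beta through receptor kinases and SMAD proteins. In B cells these signals together are known to bring about immunoglobulin class switching, and the cells shift their surface receptors, metabolism and transcription factors over the following hours to days.

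Between the middle and the late phase the treatment difference widened far more often than it closed. Of 12042 genes tested, 812 had a late difference unlike their middle difference at an adjusted p under 0.05 in edgeR's quasi-likelihood test, which is 6.74% of the genes tested. In 428 the contrast was positive (3.55% of the genes tested) and in 384 negative (3.19%), and 248 of the 812 changed by more than 2-fold. Among the 812, induction grew or first appeared in 361 genes and repression grew or first appeared in 323. Induction faded in 47 genes and repression faded in 45. The direction of the difference turned over in 29 genes, of which 18 went from lower to higher and 11 from higher to lower in stimulated cells, and 7 genes could be placed in no class because neither phase was called in the direction needed.

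The count depended on the libraries in the fit. With only the 12 middle and late libraries it was 266, against 812 from the 18 libraries after 0 min. The count also depended on single times. It was 258 without 2 h, 193 without 3 h and 272 without 24 h, and 1299 without 6 h, 1617 without 12 h and 686 without 48 h. All 812 genes kept the sign of the contrast in each of these 6 fits, and at an unadjusted p under 0.05 the contrast passed in 2740 genes. The 3 late log2 ratios of stimulated over untreated lay wholly above or below the 3 middle ratios in 799 of the 812, against 22.7% of all genes tested. The 812 were called on this same contrast, so the kept signs and the parted ratios describe them and test nothing.

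**Figure D1:**
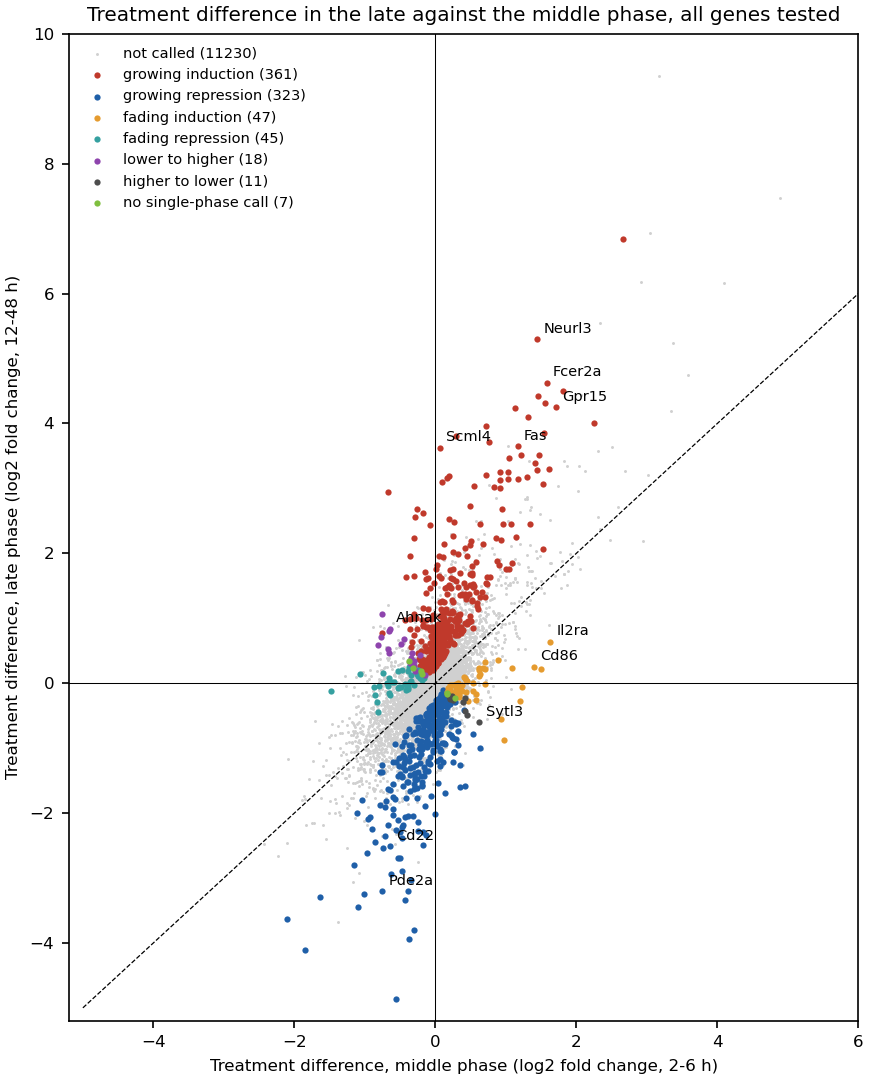
Each point is 1 of the 12042 genes tested, with its fitted log2 difference between stimulated and untreated cells in the middle phase (2 to 6 h) on the horizontal axis and in the late phase (12 to 48 h) on the vertical axis. The dashed line marks equal differences, and coloured points are the 812 called genes by class; the 361 growing inductions rise steeply above the line, and the 323 growing repressions fall below it.

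Read from the single phases, most effects of the middle phase were not distinguishable from their late size. The middle difference alone was called in 2463 genes, 20.5% of the genes tested, and 272 of these (11.0%) also had a called late minus middle contrast. The late difference was called in 4351 genes, 36.1% of the genes tested, and 721 of these (16.6%) had a called contrast. A call in the middle phase that was absent from the late phase did not amount to a fade: of 893 such genes, 84 had a called contrast. The median of the contrast over all genes was -0.01 on the log2 scale, and the medians of the middle and late differences were 0.01 and 0.00.

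Total counts ran from 36873155 to 60918651 per library over the series and from 40720958 to 58622435 over the 12 middle and late libraries. In the latter, 3 counts were worth 0.0512 to 0.0737 CPM (counts scaled to a common library size). The stimulated and the untreated library of a time were never sequenced in the same lane. The lane pair was 4 and 3 at 3, 6 and 48 h, 4 and 2 at 2 h, and 2 and 1 at 12 and 24 h, so lane and phase overlap in part. B cell markers summed to 1965 to 2586 CPM over the 12 libraries with none at 0, and T cell markers to 14 to 28.9 CPM, with 7 of 11 under 1 CPM in every library and Cd2 at 0. Macrophage and monocyte markers, of which 9 of 12 stayed under 1 CPM throughout with C1qc among those at 0, summed to 39.6 to 55.2 CPM in stimulated and 39 to 49.9 CPM in untreated cells in the middle phase. In the late phase those sums were 47.8 to 98 CPM in stimulated and 25.8 to 39.4 CPM in untreated cells. In bulk libraries fewer cells of a type and less RNA per cell cannot be told apart.

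The lanes were examined in a pair of further fits. With lane as an additive term, which leaves 4 residual degrees of freedom, 44 genes were called (2144 at an unadjusted p under 0.05), 41 of them among the 812, and all 812 kept their sign. In the libraries of lanes 4 and 3 only, which sets 48 h against 3 and 6 h with 1 residual degree of freedom, 227 genes were called, 133 of them among the 812, and again all 812 kept their sign. The median contrast of the growing inductions was 0.75 as reported, 0.75 with the lane term and 0.78 within lanes 4 and 3. For the growing repressions it was -0.75, -0.66 and -0.62, and for the fading inductions -0.44, -0.51 and -0.52. The classes and the 812 were picked by the contrast fitted to these same libraries. Kept signs and like medians thus follow in part from that choice and do not test for a lane effect.

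The classes differed in when they parted from zero. Over the 361 growing inductions the median log2 ratio of stimulated to untreated was 0.04, 0.04, 0.28, 0.67, 0.97 and 0.98 at 2, 3, 6, 12, 24 and 48 h. Over the 323 growing repressions it was 0.00, -0.03, -0.29, -0.67, -0.81 and -0.81 at those times. Both classes thus sat near zero at 2 and 3 h, had moved by 6 h and were level between 24 and 48 h. In 82 of the 361 and 69 of the 323 the difference was already called in the same direction in the middle phase (backgrounds 10.2% higher and 10.3% lower).

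The 47 fading inductions had medians of 0.44, 0.48, 0.28, 0.05, 0.01 and -0.06 at the 6 times, and the 45 fading repressions of -0.41, -0.48, -0.33, -0.05, 0.10 and 0.07. They were near zero at 1 h (0.04 and 0.02), at their widest at 3 h and back near zero from 12 h. Since the classes were set by the same fitted contrast, these medians describe the classes and test nothing.

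**Figure D2:**
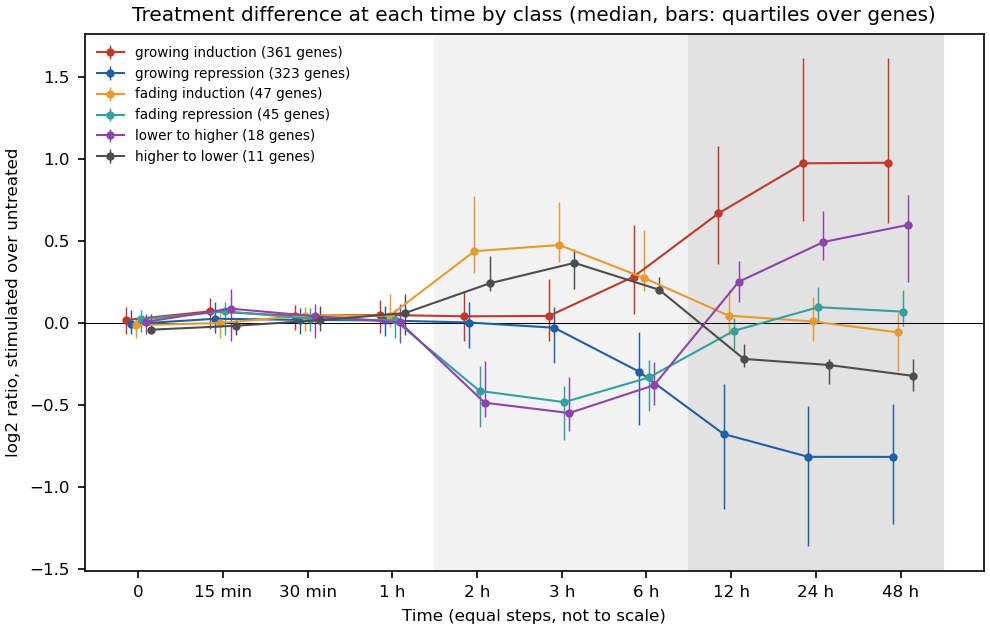
Median log2 ratio of stimulated over untreated CPM at each of the 10 times for the 6 classes of called genes, with bars from the lower to the upper quartile over genes. Light and dark bands mark the middle and late phases; the growing classes reach 0.98 and -0.81 at 48 h, and the fading classes run from 0.48 and -0.48 at 3 h to -0.06 and 0.07 at 48 h.

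Which arm moved was read from a fit of each arm's own late minus middle change. Stimulated cells changed in 1227 genes upward and 1403 downward (21.8% of the genes tested), untreated cells in 709 upward and 791 downward (12.5%). In 190 of the 361 growing inductions the stimulated cells rose (background 10.2%), and in 53 the untreated cells fell (background 6.57%). In 214 of the 323 growing repressions the stimulated cells fell (background 11.7%), and in 28 the untreated cells rose (background 5.89%). The stimulated change was the larger of the pair in 250 and 259 of these genes. Among the fading inductions the stimulated cells fell in 27 of 47, and among the fading repressions they rose in 20 of 45. A gene of these classes had to differ between the arms, so the shares describe which arm carried the difference.

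**Figure D3:**
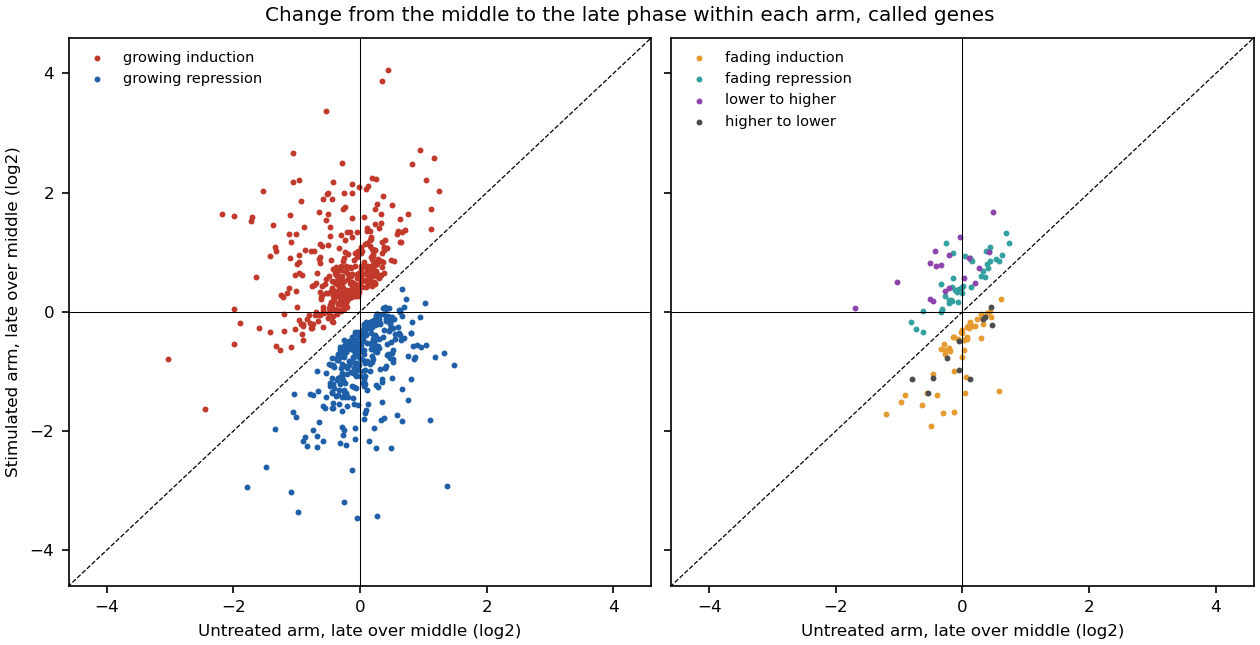
Log2 change from the middle to the late phase in stimulated cells (vertical) against the same change in untreated cells (horizontal) for the called genes, with growing classes on the left and fading and reversed classes on the right. Points off the dashed line of equal change are spread mainly along the vertical axis: the stimulated change was the larger in 250 of 361 growing inductions and 259 of 323 growing repressions.

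Among the growing inductions, Fcer2a (chr8:3681737-3694175) encodes CD23, the low-affinity IgE receptor that IL-4 is known to induce on B cells. Fcer2a stood at 2.38, 3.32 and 5.53 CPM in stimulated cells at 2, 3 and 6 h, against 1.03, 1.32 and 1.29 CPM in untreated cells. Late levels of Fcer2a were 7.48, 25.6 and 156 CPM in stimulated and 1.12, 1.32 and 2.52 CPM in untreated cells at 12, 24 and 48 h. The stimulated libraries were above the untreated at all 6 times, and the late stimulated libraries alone passed 7 CPM. The contrast was 3.05 ± 0.65 (SE; edgeR adjusted p = 0.020), from a middle difference of 1.58 to a late one of 4.63, and it was 1.98 without 48 h. Fcer2a was no longer called without 2 h, 3 h or 24 h (adjusted p = 0.082, 0.091 and 0.058 by edgeR).

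Gpr15 (chr16:58717433-58719070) encodes a homing receptor known as a TGF-beta target in lymphocytes. In stimulated cells Gpr15 was at 14.8, 24.8 and 54.4 CPM at 2, 3 and 6 h and at 59.8, 68.6 and 65 CPM at 12, 24 and 48 h. Untreated cells had Gpr15 at 7.6, 10.1 and 7.6 CPM and at 2.99, 3.49 and 3.63 CPM at the same times. Stimulated cells were higher at all 6 times, and the level in untreated cells at each late time was below that at each middle time. Its contrast was 2.54 ± 0.39 (SE; edgeR adjusted p = 0.0061). In their own arms stimulated cells rose by 1.01 (edgeR adjusted p = 0.030) and untreated cells changed by -1.33 (adjusted p = 0.018), so both arms moved. Gpr15 kept its call without each of the 6 times in turn.

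Scml4 (chr10:42860370-42960780), a gene of the Polycomb-related Scm family, had a middle difference of 0.06 that was not called. Levels of Scml4 in the middle phase were 3.65, 1.33 and 8.99 CPM in stimulated and 3.34, 2.37 and 6.47 CPM in untreated cells (2, 3 and 6 h). Late-phase Scml4 read 35.2, 76.4 and 97.6 CPM in stimulated and 6.05, 5.57 and 4.05 CPM in untreated cells (12, 24 and 48 h). Stimulated cells were below untreated cells at 3 h and far above them at every late time. The contrast was 3.56 ± 0.46 (SE; edgeR adjusted p = 0.0038). Scml4 kept its call without each of the 6 times in turn. Neurl3 (chr1:36264597-36274679), which encodes an E3 ubiquitin ligase of the Neuralized family, had the widest contrast of the genes named by rule, 3.86 ± 0.67 (SE; edgeR adjusted p = 0.0089). Neurl3 stood at 1.41, 1.55 and 5.24 CPM in stimulated cells at 2, 3 and 6 h, against 0.772, 0.798 and 1.15 CPM in untreated cells. Late levels of Neurl3 were 9.11, 24.1 and 52.1 CPM in stimulated and 0.861, 0.231 and 0.772 CPM in untreated cells at 12, 24 and 48 h. It was under 2 CPM in all untreated libraries and in stimulated cells at 2 and 3 h.

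Fas (chr19:34290666-34327772), the death receptor, was higher in stimulated cells in both phases and more so in the late one. In stimulated cells Fas was at 18.6, 13.9 and 51.2 CPM at 2, 3 and 6 h and at 40.4, 49.9 and 102 CPM at 12, 24 and 48 h. Untreated cells had Fas at 12.8, 9.43 and 10.1 CPM and at 4.33, 2.82 and 8.04 CPM at the same times. The lowest untreated libraries were those at 12 and 24 h, and the highest stimulated library was that at 48 h. The contrast was 2.48 ± 0.41 (SE; edgeR adjusted p = 0.0076), and neither arm's own change passed (adjusted p = 0.064 and 0.12 in edgeR). Hrc, a calcium-binding protein of the sarcoplasmic reticulum, Susd2, a sushi-domain membrane protein, and Emr1, the macrophage marker F4/80, completed the 6 class genes named by rule, with contrasts of 3.51 ± 0.57, 2.97 ± 0.58 and 2.99 ± 0.66 (SE). The gap in Emr1 was widest at 48 h. Emr1 stood at 2.48, 5.17 and 36.1 CPM in stimulated and 1.16, 0.717 and 1.3 CPM in untreated cells at the 3 late times. Its contrast was 1.76 without 48 h and still called (edgeR adjusted p = 0.026). That call was lost without 2 h, 3 h or 24 h (adjusted p = 0.068, 0.095 and 0.070 by edgeR). Of the 6 genes, 3 kept the call without 2 h, 3 without 3 h and 3 without 24 h. The sums of macrophage markers given above were higher in late stimulated cells than in late untreated cells. Emr1 is itself among the markers summed, so those sums are not separate from this class. The part of macrophages in the class was not tested.

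Among the growing repressions, Pik3cg (chr12:32173473-32208659) encodes the catalytic subunit of PI3-kinase gamma. Levels of Pik3cg in the middle phase were 119, 100.2 and 51.1 CPM in stimulated and 110.0, 93.3 and 87.7 CPM in untreated cells (2, 3 and 6 h). Late-phase Pik3cg read 38.6, 29.9 and 15.2 CPM in stimulated and 144, 150.2 and 148 CPM in untreated cells (12, 24 and 48 h). Stimulated cells were slightly above untreated cells at 2 and 3 h and below them from 6 h on, with the late groups far from overlapping. The contrast was -2.32 ± 0.31 (SE; edgeR adjusted p = 0.0039). Pik3cg kept its call without each of the 6 times in turn. It also held under each of the other 13 alternatives, lane term included.

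Hepacam2 (chr6:3457096-3498298), an adhesion molecule of the immunoglobulin superfamily, was also lower in late stimulated cells. Hepacam2 stood at 43.3, 43.3 and 21.6 CPM in stimulated cells at 2, 3 and 6 h, against 50.3, 52.1 and 48.5 CPM in untreated cells. Late levels of Hepacam2 were 14.5, 10.4 and 7.09 CPM in stimulated and 59.9, 73.2 and 66 CPM in untreated cells at 12, 24 and 48 h. The stimulated libraries were lower at each time from 6 h on, and the late untreated libraries were above the middle ones. Its contrast was -2.15 ± 0.29 (SE; edgeR adjusted p = 0.0039), and it held under all 19 alternatives, as did that of Pik3cg.

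Cd22 (chr7:30865402-30880342), the inhibitory co-receptor of the B cell receptor, was lower in stimulated cells in both phases. In stimulated cells Cd22 was at 367, 247 and 90.9 CPM at 2, 3 and 6 h and at 38, 31 and 82.2 CPM at 12, 24 and 48 h. Untreated cells had Cd22 at 435, 331 and 222 CPM and at 159, 243 and 455 CPM at the same times. Stimulated cells were lower at all 6 times, and the groups did not overlap in the late phase. The contrast was -1.87 ± 0.26 (SE; edgeR adjusted p = 0.0043), from -0.64 in the middle to -2.51 in the late phase. Cd22 kept its call without each of the 6 times in turn. Within lanes 4 and 3 it was -1.62, with an edgeR adjusted p = 0.069.

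Pde2a (chr7:101421691-101512827), a cGMP-stimulated phosphodiesterase, was higher in late untreated cells than in any other library. Levels of Pde2a in the middle phase were 5.58, 7.82 and 7.22 CPM in stimulated and 9.05, 11.1 and 15.2 CPM in untreated cells (2, 3 and 6 h). Late-phase Pde2a read 6.16, 3.4 and 1.86 CPM in stimulated and 35.7, 44.1 and 20.6 CPM in untreated cells (12, 24 and 48 h). The contrast was -2.45 ± 0.29 (SE; edgeR adjusted p = 0.0032). Untreated cells changed by 1.49 (edgeR adjusted p = 0.014), and the value in stimulated cells was -0.89 (adjusted p = 0.078). Pou2f3, an octamer-binding transcription factor, was likewise high in late untreated cells, at 19.5, 18.4 and 7.08 CPM against 3.01, 1.6 and 0.544 CPM in stimulated cells. Hapln1, a hyaluronan link protein, and Pdzd2, a PDZ-domain protein, were the other 2 of the 6 named, with contrasts of -2.41 ± 0.39 and -2.36 ± 0.60 (SE). Pdzd2 was at -1.54 without 2 h. Of the 6 genes, 5 kept the call without each of 2, 3, 24 and 48 h.

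Among the fading inductions, Cd86 (chr16:36603869-36666081) encodes B7-2, a costimulatory ligand of CD28 on T cells. Cd86 stood at 265, 337 and 306 CPM in stimulated cells at 2, 3 and 6 h, against 105, 112 and 129 CPM in untreated cells. Late levels of Cd86 were 155, 145 and 134 CPM in stimulated and 110.2, 117 and 134 CPM in untreated cells at 12, 24 and 48 h. The 3 middle stimulated libraries were the highest of the 12, the untreated level hardly moved, and the arms met at 48 h. The contrast was -1.14 ± 0.13 (SE; edgeR adjusted p = 0.0030), from 1.40 to 0.26. Cd86 kept its call without each of the 6 times in turn.

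Il2ra (chr2:11642807-11693193), the alpha chain of the IL-2 receptor, was called higher in both phases. In stimulated cells Il2ra was at 36.3, 59.2 and 51.1 CPM at 2, 3 and 6 h and at 19, 15.5 and 22.3 CPM at 12, 24 and 48 h. Untreated cells had Il2ra at 12.7, 15.9 and 18.5 CPM and at 13.3, 10.6 and 12.1 CPM at the same times. Stimulated cells were above untreated cells at all 6 times, by less in the late phase. Its contrast was -0.99 ± 0.14 (SE; edgeR adjusted p = 0.0045), from 1.63 to 0.64. Il2ra kept its call without each of the 6 times in turn. With the lane term its edgeR adjusted p was 0.077.

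Slfn2 (chr11:83065112-83070678), a Schlafen gene linked to lymphocyte quiescence, was highest at 2 h. Levels of Slfn2 in the middle phase were 279.6, 196 and 83 CPM in stimulated and 76.6, 58.5 and 45.7 CPM in untreated cells (2, 3 and 6 h). Late-phase Slfn2 read 65.7, 62.8 and 23.9 CPM in stimulated and 56.8, 52.7 and 20.2 CPM in untreated cells (12, 24 and 48 h). Stimulated cells were above untreated cells at all 6 times, by little from 12 h on. The contrast was -1.28 ± 0.31 (SE; edgeR adjusted p = 0.035). Slfn2 was no longer called without 2 h, 3 h, 24 h or 48 h (adjusted p = 0.14, 0.15, 0.11 and 0.066 by edgeR). Coro2a, an actin-binding coronin, was at 142, 169 and 138 CPM in stimulated middle cells and at 86.5, 82.1 and 63.1 CPM in stimulated late cells, against 67.3, 74.5 and 70.5 and 55, 72 and 68.9 CPM in untreated cells. Its contrast was -0.85 ± 0.15 (SE; edgeR adjusted p = 0.0099), and at 48 h the stimulated library was the lower. Arap2, a GTPase-activating protein for Arf, and Bcl9l, a co-activator of beta-catenin, had contrasts of -0.84 ± 0.20 and -0.74 ± 0.17 (SE). Of the 6 genes named in this class, 3 kept the call without 2 h, 2 without 3 h, 5 without 12 h, 4 without 24 h and 3 without 48 h.

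Among the fading repressions, S1pr1 (chr3:115710433-115715072) encodes the sphingosine 1-phosphate receptor by which lymphocytes leave lymphoid tissue. S1pr1 stood at 14.7, 14.2 and 15.5 CPM in stimulated cells at 2, 3 and 6 h, against 24.8, 24.5 and 28.7 CPM in untreated cells. Late levels of S1pr1 were 16.5, 25 and 43.3 CPM in stimulated and 20, 21.9 and 43.6 CPM in untreated cells at 12, 24 and 48 h. Stimulated cells were lower in all 3 middle pairs and at 12 h, higher at 24 h and level with untreated cells at 48 h. The contrast was 0.77 ± 0.19 (SE; edgeR adjusted p = 0.039). S1pr1 was no longer called without 2 h, 3 h, 6 h, 24 h or 48 h (adjusted p = 0.10, 0.12, 0.060, 0.14 and 0.086 by edgeR). It also lost the call in limma-voom (adjusted p = 0.053).

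Cdkn1b, which encodes the CDK inhibitor p27, had a like course. In stimulated cells Cdkn1b was at 22.9, 21.9 and 44.4 CPM at 2, 3 and 6 h and at 59.7, 49 and 75.1 CPM at 12, 24 and 48 h. Untreated cells had Cdkn1b at 35.7, 42.6 and 60.4 CPM and at 58.5, 53.1 and 75.6 CPM at the same times. The contrast was 0.63 ± 0.11 (SE; edgeR adjusted p = 0.0099), from -0.67 to -0.04. Cdkn1b kept its call without each of the 6 times in turn. Dpysl2, a microtubule-associated protein, had the widest contrast of the class genes named, 0.90 ± 0.14, followed by S1pr1. The forkhead gene Foxj2, the lipid transporter gene Abca7, the long non-coding RNA Eldr and Rell1, a relative of the TNF receptor RELT, lay between 0.67 and 0.72. Without 48 h Foxj2 was at 0.47 and Rell1 at 0.43. Of these 6 class genes, 1 kept the call without each of 2, 3 and 24 h, 3 without 6 h, 5 without 12 h and 2 without 48 h.

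In 29 genes the direction turned over. Ahnak (chr19:8989284-9076914), a giant scaffold protein, went from lower to higher in stimulated cells. Levels of Ahnak in the middle phase were 53.4, 53.1 and 62.7 CPM in stimulated and 88.3, 77.7 and 99.5 CPM in untreated cells (2, 3 and 6 h). Late-phase Ahnak read 113, 111 and 82.5 CPM in stimulated and 104, 48.7 and 34.5 CPM in untreated cells (12, 24 and 48 h). Stimulated cells were lower in all 3 middle pairs and higher in all 3 late pairs, and the untreated libraries at 24 and 48 h were the lowest of the 12. The contrast was 1.48 ± 0.24 (SE; edgeR adjusted p = 0.0068), from -0.64 to 0.84. Ahnak kept its call without each of the 6 times in turn.

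Tsc22d3 (chrX:140539528-140600659), which encodes the glucocorticoid-induced leucine zipper, crossed in the same way. Tsc22d3 stood at 15.2, 17.3 and 15.8 CPM in stimulated cells at 2, 3 and 6 h, against 26.9, 27.8 and 22.3 CPM in untreated cells. Late levels of Tsc22d3 were 17.1, 21.9 and 44.3 CPM in stimulated and 14, 15.6 and 28.4 CPM in untreated cells at 12, 24 and 48 h. Every middle pair had stimulated cells lower and every late pair had them higher. Its contrast was 1.13 ± 0.12 (SE; edgeR adjusted p = 0.0030). Tsc22d3 kept its call without each of the 6 times in turn. Thbs3, a thrombospondin, and Ccng2, a cyclin of the G family, had contrasts of 1.40 ± 0.28 and 1.2 ± 0.19 (SE). Of these 4 genes, 3 kept the call without 3 h and 3 without 24 h, and all 4 without each of the other 4 times.

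Sytl3 (chr17:6659093-6738044), a synaptotagmin-like vesicle protein, went from higher to lower. In stimulated cells Sytl3 was at 59.3, 52 and 35.7 CPM at 2, 3 and 6 h and at 21.5, 17.5 and 29.7 CPM at 12, 24 and 48 h. Untreated cells had Sytl3 at 31.7, 31 and 31 CPM and at 32.4, 28.3 and 41.9 CPM at the same times. All 3 middle pairs had stimulated cells higher and all 3 late pairs lower. The contrast was -1.23 ± 0.16 (SE; edgeR adjusted p = 0.0039), and stimulated cells alone carried a called change (-1.12, edgeR adjusted p = 0.0024, against 0.12 and adjusted p = 0.73 in untreated cells). Tlr1, a co-receptor for bacterial lipopeptides, had the smallest standard error of the 4 named, with a contrast of -0.69 ± 0.07 (edgeR adjusted p = 0.0030). Efnb1, the ligand ephrin-B1, and Ehd1, a protein of endocytic recycling, had contrasts of -0.85 and -0.64. All 4 kept the call without each of the 6 times.

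**Figure D4:**
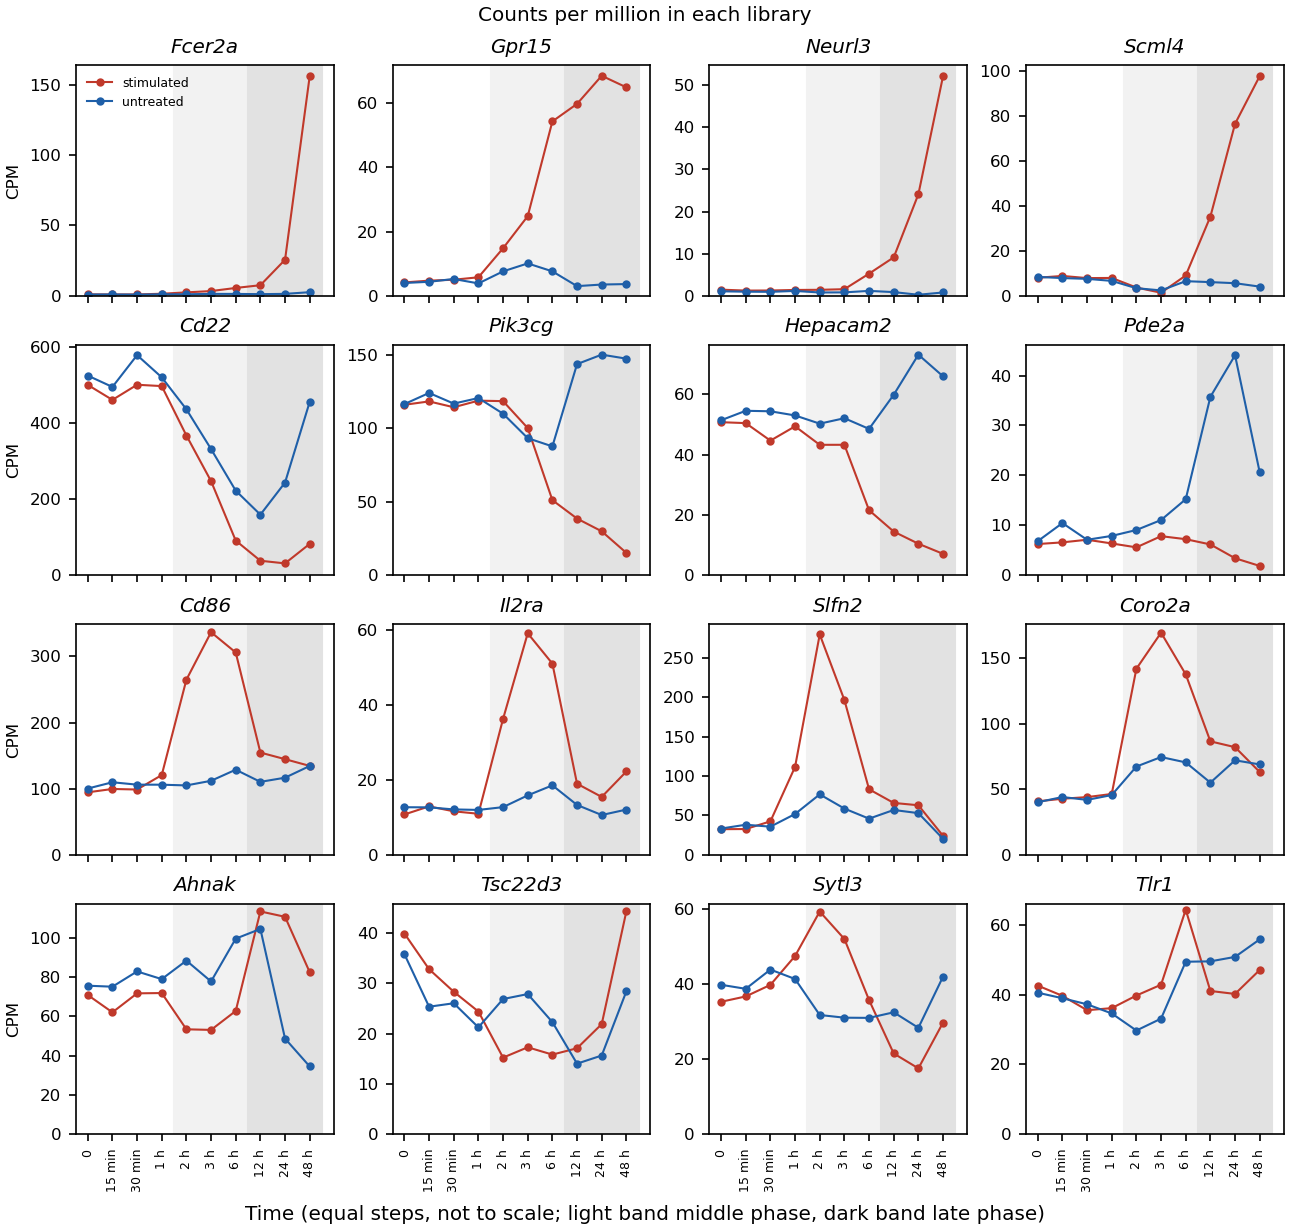
CPM in every library for 16 genes over the 10 times (equal steps, not to scale), with stimulated cells in red and untreated cells in blue and with light and dark bands for the middle and late phases. The top row holds growing inductions, the second growing repressions, the third fading inductions and the fourth reversals; Cd86 stands at 337 CPM in stimulated cells at 3 h and at 134 CPM at 48 h.

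Of 36 genes of the class switching machinery tested, among them repair and cofactor genes, 1 was called, Nfkb1 (2.78%, against 6.74% of all genes). The median contrast of the list was -0.09, against -0.01 over all genes.

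In the response lists of the 3 agents, as over all genes, more genes were called in each phase alone than in the contrast. Counts of list members in other settings are to be read beside those over all genes, 428 higher and 384 lower as reported. The latter became 136 and 122 without 2 h, 104 and 89 without 3 h and 721 and 578 without 6 h. They were 953 and 664 without 12 h, 139 and 133 without 24 h and 318 and 368 without 48 h. With the lane term they were 25 and 19, and without pairing by time 16 and 25. Of 31 NF-kB and LPS response genes tested, 18 were called higher in the middle phase (background 10.2%) and 16 in the late phase (background 17.8%), and the contrast was called in 5 (16.1%, against 6.74% of all genes). The median log2 ratio of the list was 0.63, 0.54, 0.59, 0.23, 0.53 and 0.49 over the 6 times. Nfkb1, encoding p105 and p50, and Nfkb2, encoding p100 and p52 of the non-canonical arm, went opposite ways. Levels of Nfkb1 in the middle phase were 669.5, 730.3 and 523 CPM in stimulated and 379, 437 and 384 CPM in untreated cells (2, 3 and 6 h). Late-phase Nfkb1 read 414, 454 and 384 CPM in stimulated and 385, 338 and 332 CPM in untreated cells (12, 24 and 48 h). Nfkb2 stood at 125, 146 and 194 CPM in stimulated cells at 2, 3 and 6 h, against 80.7, 101 and 96.9 CPM in untreated cells. Late levels of Nfkb2 were 240.0, 247 and 253 CPM in stimulated and 99.5, 74.4 and 82.8 CPM in untreated cells at 12, 24 and 48 h. Stimulated cells were above untreated cells at all 6 times for both, with the gap narrowing for Nfkb1 and widening for Nfkb2. The contrasts were -0.44 ± 0.10 (SE; edgeR adjusted p = 0.031) for Nfkb1 and 0.80 ± 0.14 (SE; edgeR adjusted p = 0.0097) for Nfkb2. Nfkb1 was no longer called without 2 h, 3 h, 12 h or 48 h (adjusted p = 0.13, 0.15, 0.056 and 0.071 by edgeR). Nfkb2 was no longer called without 3 h (adjusted p = 0.053 by edgeR). The other 3 called members were Cd86, Slfn2 and Il10. Over the list, the 4 genes called lower became 1 without 2 h, 3 h or 48 h and 4 without 6 h or 12 h, and 1 with the lane term, 2 within lanes 4 and 3 and 1 without pairing by time.

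Il10, the anti-inflammatory cytokine, was a growing repression. In stimulated cells Il10 was at 46.6, 31.8 and 32.6 CPM at 2, 3 and 6 h and at 44.4, 22 and 9.56 CPM at 12, 24 and 48 h. Untreated cells had Il10 at 52.5, 62.5 and 89.8 CPM and at 159.6, 145 and 66.3 CPM at the same times. The 2 h pair was nearly level, and the late stimulated libraries were all below the late untreated ones. Its contrast was -1.58 ± 0.35 (SE; edgeR adjusted p = 0.023). Il10 was no longer called without 2 h, 3 h, 24 h or 48 h (adjusted p = 0.078, 0.084, 0.100 and 0.057 by edgeR). Among NF-kB targets whose contrast missed the threshold, the inhibitor Nfkbia had a middle difference of 1.37 and a late one of 1.48 (contrast 0.11 ± 0.39), and the adaptor Traf1 had 1.82 and 1.68 (contrast -0.14 ± 0.22). The anti-apoptotic genes Bcl2l1 and Cflar had contrasts of -0.29 ± 0.39 and 0.08 ± 0.12. These 4 were chosen after their values were seen, as examples of genes called higher in both phases.

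Of 19 IL-4 and STAT6 response genes tested, 10 were called higher in the middle (background 10.2%) and 8 in the late phase (background 17.8%), and Fcer2a and Ccl22 alone had a called contrast (10.5%, against 6.74%). Ccl22 encodes a chemokine that draws CCR4-bearing T cells and was among the most abundant transcripts of the list. Levels of Ccl22 in the middle phase were 4928, 6120.5 and 7173 CPM in stimulated and 1958, 2118 and 2192 CPM in untreated cells (2, 3 and 6 h). Late-phase Ccl22 read 7473, 8642 and 6898 CPM in stimulated and 2095, 1726 and 1629 CPM in untreated cells (12, 24 and 48 h). Stimulated cells were above untreated cells by more than 2-fold at every time. The contrast was small, 0.54 ± 0.14 (SE; edgeR adjusted p = 0.046). Ccl22 was no longer called without 2 h, 3 h, 24 h or 48 h (adjusted p = 0.17, 0.14, 0.16 and 0.085 by edgeR). It was not called in DESeq2 either (adjusted p = 0.44). The list's count was 0 without 2 h, 3 h or 24 h and 4 without 12 h, and 1 with the lane term, 1 within lanes 4 and 3 and 0 without pairing by time. Over the list, stimulated and untreated cells differed by a median of 0.29, 0.33, 0.94 and 0.15 (log2 ratio) at 6, 12, 24 and 48 h.

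Of 21 TGF-beta and SMAD response genes tested, Gpr15 alone had a called contrast (4.76%, against 6.74%), with 9 called higher in the middle and 11 in the late phase (backgrounds 10.2% and 17.8%). The count was 1 without 2 h, 3 h or 24 h and 3 without 6 h or 12 h, and 0 with the lane term, 0 within lanes 4 and 3 and 1 without pairing by time. The feedback inhibitors Smad7 and Skil stayed above untreated cells in both phases, with contrasts of 0.32 ± 0.32 and 0.11 ± 0.24 that did not pass. In JAK-STAT signalling, 12 of 24 genes were called higher in each phase (backgrounds 10.2% and 17.8%), and the contrast was called higher in 2, with Stat3 at 0.46 ± 0.10 (edgeR adjusted p = 0.026), and lower for Socs5 (-0.82 ± 0.14, adjusted p = 0.0084), which is 12.5% of the list against 6.74%. Stat3 read 120.1, 136 and 96.3 CPM in middle and 128, 130.1 and 99.2 CPM in late stimulated cells, against 93.9, 98.1 and 60.1 and 67.2, 59.3 and 55.1 CPM in untreated cells, and was higher in stimulated cells at all 6 times. Its contrast was 0.27 with the lane term. The count of genes called higher was 0 without 2 h, 3 h or 24 h and 3 without 6 h, and 0 with the lane term, 0 within lanes 4 and 3 and 0 without pairing by time. Stat5a, which was called at similar size in both phases (1.94 and 1.83), had a contrast of -0.11 ± 0.12; it, Smad7 and Skil were chosen after their values were seen.

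Surface molecules of activation moved apart. Of 21 costimulation genes tested, 12 were called higher in the middle phase and 9 in the late phase (backgrounds 10.2% and 17.8%). The contrast was lower in 6 (Cd86, Il2ra, Cd38, Cd44, Cd274 and Slamf1) and higher in 2 (Icosl and Slamf7), together 38.1% of the list against 6.74% of all genes, and the list median was -0.21. Icosl, the ligand of ICOS on T cells, had the widest positive contrast of the list. Icosl stood at 5.54, 5.6 and 22.1 CPM in stimulated cells at 2, 3 and 6 h, against 2.01, 2.89 and 6.12 CPM in untreated cells. Late levels of Icosl were 32, 45.2 and 79.9 CPM in stimulated and 5.17, 2.89 and 5.1 CPM in untreated cells at 12, 24 and 48 h. Stimulated cells were above untreated cells at all 6 times, and its contrast was 2.03 ± 0.34 (SE; edgeR adjusted p = 0.0079). Icosl kept its call without each of the 6 times in turn. Cd38, an ectoenzyme that consumes NAD, had the widest negative one. In stimulated cells Cd38 was at 8.27, 3.75 and 1.91 CPM at 2, 3 and 6 h and at 1.23, 0.948 and 1.89 CPM at 12, 24 and 48 h. Untreated cells had Cd38 at 7.12, 4.07 and 4.64 CPM and at 4.26, 4.53 and 7.94 CPM at the same times. Its contrast was -1.72 ± 0.33 (SE; edgeR adjusted p = 0.013). Cd38 was no longer called without 2 h, 3 h or 24 h (adjusted p = 0.056, 0.067 and 0.058 by edgeR). The count called lower was 2 without 2 h or 3 h and 5 without 6 h or 12 h, and 1 with the lane term, 2 within lanes 4 and 3 and 1 without pairing by time, and the count called higher was 1 without 2 h, 3 h or 24 h and 5 without 12 h, and 1 with the lane term, 3 within lanes 4 and 3 and 0 without pairing by time.

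Of 27 genes of chemokine receptors, adhesion and migration, the contrast was higher in 3 (Gpr15, S1pr1 and Rgs2) and lower in 4 (Itga4, Itgb1, Cd44 and Rgs13), against 3.55% and 3.19% of all genes. Itga4 encodes the alpha-4 integrin chain, which pairs with the beta-1 chain of Itgb1 in VLA-4. Levels of Itga4 in the middle phase were 295, 249 and 161 CPM in stimulated and 278, 242 and 214 CPM in untreated cells (2, 3 and 6 h). Late-phase Itga4 read 109, 130.2 and 169 CPM in stimulated and 222, 222 and 323 CPM in untreated cells (12, 24 and 48 h). Itgb1 stood at 562, 552 and 388 CPM in stimulated cells at 2, 3 and 6 h, against 557, 544 and 494 CPM in untreated cells. Late levels of Itgb1 were 355, 382 and 342 CPM in stimulated and 576, 718 and 549 CPM in untreated cells at 12, 24 and 48 h. Stimulated cells were below untreated cells for both genes at each late time, and the pairs at 2 and 3 h were nearly level. The contrasts were -0.83 ± 0.12 (SE; edgeR adjusted p = 0.0045) for Itga4 and -0.67 ± 0.10 (SE; edgeR adjusted p = 0.0058) for Itgb1. Rgs13, a regulator of G protein signalling found in germinal centre B cells, also had its highest values in late untreated cells. It read 739, 772 and 857 CPM in middle and 1087, 1640.5 and 1437 CPM in late untreated cells, against 645, 688 and 484 and 476, 565 and 411 CPM in stimulated cells. Its contrast was -1.13 ± 0.18 (SE; edgeR adjusted p = 0.0064). Itga4 kept its call without each of the 6 times in turn. Rgs13 kept its call without each of the 6 times in turn. The count called higher in the list was 1 without 2 h or 24 h and 5 without 12 h, and 0 with the lane term, 1 within lanes 4 and 3 and 1 without pairing by time.

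The treatment difference of several genes of the hypoxia response and of glycolysis widened upward in the late phase, most of all at 24 and 48 h. HIF transcription factors, which oxygen destabilises, are known to act on genes of both lists through the DNA motif ACGTG. Of 19 hypoxia response genes tested, the contrast was called higher in 7 and did not pass in 12, and 16 had a positive contrast. Of 19 glycolysis genes, it was called higher in 8 and did not pass in 11, and 18 had a positive contrast. Over all genes 5753 of 12042 contrasts were positive. The members called higher are 36.8% and 42.1% of the lists, against 3.55% of all genes. Over all genes, 136 were called higher without 2 h, 104 without 3 h and 953 without 12 h. That number was 25 with the lane term and 16 without pairing by time. The median log2 ratio of the hypoxia list was 0.16, 0.24, 0.74 and 0.92 at 6, 12, 24 and 48 h, and that of glycolysis 0.11, 0.25, 0.50 and 0.62. Called hypoxia genes numbered 4 without 3 h and 9 without 12 h, and 2 with the lane term, 4 within lanes 4 and 3 and 1 without pairing by time. Called glycolysis genes numbered 0 without 2 h or 3 h and 13 without 12 h, and 0 with the lane term, 7 within lanes 4 and 3 and 0 without pairing by time.

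The promoter windows of 4 called genes are shown because they hold the motif at known places; each runs 5′ to 3′ on the gene's strand, from 250 bases before to 50 after the first-listed RefSeq start in GRCm38.p6, with ACGTG or its reverse complement CACGT in capitals (a CACGTG, the E-box, reads as ACGTG on both strands).
Bnip3: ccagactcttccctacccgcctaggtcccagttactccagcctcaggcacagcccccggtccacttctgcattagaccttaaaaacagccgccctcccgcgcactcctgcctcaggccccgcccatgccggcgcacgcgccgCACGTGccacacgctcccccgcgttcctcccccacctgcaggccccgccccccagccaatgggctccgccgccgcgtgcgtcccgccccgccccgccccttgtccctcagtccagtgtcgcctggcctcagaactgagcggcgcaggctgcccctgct
P4ha1: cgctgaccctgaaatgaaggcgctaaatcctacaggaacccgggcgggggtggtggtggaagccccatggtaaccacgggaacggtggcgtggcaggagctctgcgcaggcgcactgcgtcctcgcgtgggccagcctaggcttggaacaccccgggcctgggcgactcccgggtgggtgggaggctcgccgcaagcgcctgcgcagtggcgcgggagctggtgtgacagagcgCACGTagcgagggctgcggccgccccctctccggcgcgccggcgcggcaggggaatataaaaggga
Ddit4: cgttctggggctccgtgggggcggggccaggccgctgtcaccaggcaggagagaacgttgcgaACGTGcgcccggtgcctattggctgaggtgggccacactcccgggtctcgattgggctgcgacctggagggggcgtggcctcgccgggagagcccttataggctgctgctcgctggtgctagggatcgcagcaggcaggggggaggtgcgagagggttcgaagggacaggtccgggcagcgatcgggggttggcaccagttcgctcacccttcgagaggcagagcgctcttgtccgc
Slc16a3: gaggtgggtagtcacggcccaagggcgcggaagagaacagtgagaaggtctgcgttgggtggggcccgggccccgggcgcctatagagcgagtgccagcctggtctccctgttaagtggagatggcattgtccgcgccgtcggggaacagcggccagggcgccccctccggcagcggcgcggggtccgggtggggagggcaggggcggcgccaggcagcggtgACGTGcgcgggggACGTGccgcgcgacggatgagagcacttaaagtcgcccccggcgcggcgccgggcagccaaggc

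The windows lie at chr7:138909457-138909756 (minus strand, Bnip3), chr10:59323046-59323345 (plus, P4ha1), chr10:59951721-59952020 (minus, Ddit4) and chr11:120948817-120949116 (plus, Slc16a3). A window was found for 9167 of the 12042 genes tested, and 26.5% of these windows held the motif on either strand. It was in 10 of 16 windows of the hypoxia list (62.5%), in 4 of 6 of its members called higher, in 9 of 18 windows of the glycolysis list and in 4 of 8 of its called members. Over the growing inductions as a class the share was 26.5%. These are matches of letters and not tested binding sites.

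Bnip3 encodes a mitochondrial protein of mitophagy and cell death and carries 1 CACGTG in its window. In stimulated cells Bnip3 was at 7.72, 8.78 and 16.4 CPM at 2, 3 and 6 h and at 20.5, 43.8 and 52.3 CPM at 12, 24 and 48 h. Untreated cells had Bnip3 at 7.0, 8.88 and 12.3 CPM and at 8.52, 11.6 and 20.3 CPM at the same times. The pairs at 2 and 3 h were level, and stimulated cells were higher from 6 h on. Its contrast was 1.31 ± 0.18 (SE; edgeR adjusted p = 0.0041). Bnip3 kept its call without each of the 6 times in turn. Ddit4, an inhibitor of mTORC1, crossed from lower to higher. Levels of Ddit4 in the middle phase were 21, 24.8 and 24.6 CPM in stimulated and 29.7, 37.6 and 32.1 CPM in untreated cells (2, 3 and 6 h). Late-phase Ddit4 read 28.4, 54.1 and 145 CPM in stimulated and 23.9, 31.7 and 83.7 CPM in untreated cells (12, 24 and 48 h). In both arms the 48 h library was the highest. Its contrast was 1.10 ± 0.17 (SE; edgeR adjusted p = 0.0065). Ddit4 kept its call without each of the 6 times in turn. The close relative Bnip3l and the collagen prolyl hydroxylase subunit P4ha1 had contrasts of 1.07 ± 0.20 and 0.82 ± 0.13 (SE).

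Slc16a3, which encodes the lactate exporter MCT4, had the widest contrast of the glycolysis list. Slc16a3 stood at 1.51, 1.88 and 1.95 CPM in stimulated cells at 2, 3 and 6 h, against 1.87, 1.52 and 1.83 CPM in untreated cells. Late levels of Slc16a3 were 4.09, 12.7 and 18.9 CPM in stimulated and 1.66, 1.99 and 6.49 CPM in untreated cells at 12, 24 and 48 h. It was under 2 CPM in all 6 middle libraries, and stimulated cells were higher at each late time. The contrast was 1.80 ± 0.37 (SE; edgeR adjusted p = 0.018). Slc16a3 was no longer called without 2 h or 3 h (adjusted p = 0.083 and 0.060 by edgeR). The enzymes Pfkl (phosphofructokinase), Eno2 (enolase) and the glucose importer Slc2a1 had contrasts of 0.73 ± 0.15, 0.97 ± 0.20 and 0.54 ± 0.14 (SE). For Slc2a1 the late minus middle value was -0.37 in stimulated and -0.92 in untreated cells, neither of which passed (edgeR adjusted p = 0.43 and 0.076). In the respiratory chain 0 of 30 genes had a called contrast by edgeR, DESeq2 or limma (3 at an unadjusted p under 0.05 by edgeR).

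For several genes of B cell identity and of the B cell receptor the treatment difference widened downward in the late phase. Of 27 receptor and co-receptor genes tested, the contrast was lower in 6 (Cd22, Bank1, Syk, Cd5, Cd79b and Prkcb) and higher in Ptpn22 (25.9% in all, against 6.74%). Those called lower numbered 3 without 2 h or 3 h and 7 without 6 h, and 0 with the lane term, 1 within lanes 4 and 3 and 0 without pairing by time. Bank1 encodes a scaffold of B cell receptor signalling. In stimulated cells Bank1 was at 66.9, 54.1 and 19.8 CPM at 2, 3 and 6 h and at 16.1, 14 and 18.9 CPM at 12, 24 and 48 h. Untreated cells had Bank1 at 61.5, 52.2 and 34.7 CPM and at 39.7, 48 and 52.8 CPM at the same times. Stimulated and untreated cells were level at 2 and 3 h and apart from 6 h on. Its contrast was -1.34 ± 0.21 (SE; edgeR adjusted p = 0.0066). Bank1 kept its call without each of the 6 times in turn. Syk, the kinase next to the receptor, read 317, 246 and 175 CPM in middle and 188, 231 and 183 CPM in late stimulated cells, against 333, 323 and 313 and 485, 465 and 398 CPM in untreated cells. Its contrast was -0.75 ± 0.16 (SE; edgeR adjusted p = 0.020). Syk was no longer called without 2 h or 3 h (adjusted p = 0.062 and 0.095 by edgeR).

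Of 28 transcription factors of B cells and plasma cells tested, 8 were called lower in the middle phase (background 10.3%) and 16 in the late phase (background 18.3%), and the contrast was lower in 4 and higher in Tcf7 (17.9% in all, against 6.74%). Ebf1, which maintains B cell identity, was level with untreated cells at 2 h and below them from 6 h. Levels of Ebf1 in the middle phase were 183, 214 and 111 CPM in stimulated and 189, 178 and 142 CPM in untreated cells (2, 3 and 6 h). Late-phase Ebf1 read 78.4, 81.1 and 66 CPM in stimulated and 126, 116 and 126 CPM in untreated cells (12, 24 and 48 h). Its contrast was -0.68 ± 0.14 (SE; edgeR adjusted p = 0.017). Ebf1 was no longer called without 2 h or 3 h (adjusted p = 0.064 and 0.078 by edgeR). Prdm1, which encodes Blimp-1 and drives plasma cell differentiation, was lower in stimulated cells at all 6 times. Prdm1 stood at 16.6, 13.1 and 6.99 CPM in stimulated cells at 2, 3 and 6 h, against 35.7, 28.8 and 14.8 CPM in untreated cells. Late levels of Prdm1 were 5.15, 3.57 and 5.85 CPM in stimulated and 16.4, 14.9 and 27.7 CPM in untreated cells at 12, 24 and 48 h. Its contrast was -0.90 ± 0.19 (SE; edgeR adjusted p = 0.019). Prdm1 was no longer called without 2 h, 3 h, 24 h or 48 h (adjusted p = 0.070, 0.081, 0.082 and 0.059 by edgeR). Foxp1 and Pou2f2 had contrasts of -0.53 and -0.33. The count called lower was 1 without 2 h or 3 h and 9 without 6 h, and 0 with the lane term, 1 within lanes 4 and 3 and 0 without pairing by time.

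Tcf7, which encodes TCF1, a factor best known in T cells, had a contrast in the other direction. In stimulated cells Tcf7 was at 11.4, 15.7 and 50.1 CPM at 2, 3 and 6 h and at 74.3, 87.1 and 82.7 CPM at 12, 24 and 48 h. Untreated cells had Tcf7 at 9.26, 9.63 and 12.3 CPM and at 8.93, 5.57 and 7.57 CPM at the same times. Stimulated cells were above untreated cells at all 6 times, and the late groups were far apart. Its contrast was 2.43 ± 0.37 (SE; edgeR adjusted p = 0.0060). Tcf7 kept its call without each of the 6 times in turn. Of the T cell markers 4 were tested, of which 0 had a called contrast by edgeR, DESeq2 or limma (1 at an unadjusted p under 0.05 by edgeR), and their sum was 15.6 to 18.1 CPM in late stimulated and 19.9 to 28.9 CPM in late untreated cells.

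Of the 11 B cell markers tested, 4 had a lower contrast (Cd22, Ebf1, Ms4a1 and Cd79b) and 7 did not pass (3.19% of all genes were called lower). By sign alone, 4 of the 11 contrasts were positive and 7 negative (5753 and 6289 over all genes). The list's median log2 ratio was -0.34, -0.29 and 0.14 at 12, 24 and 48 h. Ms4a1, which encodes CD20, read 414, 409 and 308 CPM in middle and 265, 299.9 and 311 CPM in late stimulated cells, against 454, 441 and 455 and 500.4, 598 and 499 CPM in untreated cells, with a contrast of -0.61 ± 0.12 (SE; edgeR adjusted p = 0.015). The summed B cell markers were 2006 to 2462 CPM in middle and 1965 to 2284 CPM in late stimulated cells, and 2337 to 2488 and 2495 to 2586 CPM in untreated cells. The count called lower was 2 without 2 h or 3 h and 4 without 6 h, 12 h or 48 h, and 0 with the lane term, 0 within lanes 4 and 3 and 0 without pairing by time, while 3 were called higher without 12 h and 2 with 12 h moved to the middle phase. Of 3 macrophage markers tested, Emr1 and Csf1r had a higher contrast (3.55% of all genes were called higher), and 1 had a negative contrast that did not pass. Of 5 dendritic cell markers, Flt3 (1.18) and Zbtb46 (0.75) had a higher and Batf3 (-1.24) a lower one. The macrophage count called higher was 1 without 2 h, 3 h or 24 h, and 0 with the lane term or without pairing by time. The dendritic count called higher was 0 without 2 h, 3 h, 24 h or 48 h, 1 with the lane term and 0 without pairing by time. Csf1r, the receptor of the macrophage growth factor CSF1, read 33.4, 36.1 and 42.7 CPM in late stimulated and 18.3, 13.8 and 19.6 CPM in late untreated cells, and its contrast was 1.01 ± 0.12 (SE; edgeR adjusted p = 0.0032). These markers were named after their values were seen, and their part in the late differences was not tested.

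Of 26 genes of apoptosis and survival, 3 had a higher contrast, Fas and Bmf among them, and 23 did not pass (3.55% of all genes were called higher). Bmf encodes a pro-apoptotic BH3-only protein. Levels of Bmf in the middle phase were 6.94, 6.88 and 16.1 CPM in stimulated and 8.11, 7.91 and 14.6 CPM in untreated cells (2, 3 and 6 h). Late-phase Bmf read 10.6, 12 and 13.9 CPM in stimulated and 7.4, 6.84 and 9.32 CPM in untreated cells (12, 24 and 48 h). Stimulated cells were below untreated cells at 2 and 3 h and above them at 6 h and all late times. Its contrast was 0.70 ± 0.14 (SE; edgeR adjusted p = 0.015). Bmf was no longer called without 2 h, 3 h or 24 h (adjusted p = 0.067, 0.072 and 0.063 by edgeR). Over the list the count was 2 without 2 h, 3 h or 24 h and 6 without 6 h or 12 h, and 1 with the lane term, 2 within lanes 4 and 3 and 0 without pairing by time. In antigen presentation, Cd74, the invariant chain, and Ifi30, a lysosomal thiol reductase, had the 2 called contrasts, both higher (background 3.55%), among 8 MHC class II genes (0.45 ± 0.10 and 0.64 ± 0.12), and all 8 contrasts were positive. That count was 0 without 2 h, 3 h or 24 h and 4 without 12 h, and 0 with the lane term, 1 within lanes 4 and 3 and 0 without pairing by time.

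Ribosome biogenesis showed a small induction of the middle phase that was called in few genes late. Of 35 genes, 21 were called higher in the middle phase and 4 in the late phase (backgrounds 10.2% and 17.8%), 33 had a negative contrast, and 1 of these contrasts was called, that of Polr1b, a subunit of RNA polymerase I (-0.27 ± 0.07, edgeR adjusted p = 0.045). The list's median log2 ratio was 0.18, 0.22, 0.21 and 0.17 from 2 to 12 h and 0.01 and 0.05 at 24 and 48 h, and its median contrast was -0.17. Polr1b was no longer called without 2 h, 3 h, 12 h, 24 h or 48 h (adjusted p = 0.16, 0.19, 0.075, 0.12 and 0.053 by edgeR). It was not called with either other scaling or with all 20 libraries (adjusted p = 0.060, 0.081 and 0.054 by edgeR). The list's count called lower was 0 without 2 h, 3 h or 24 h and 8 without 12 h, and 0 with the lane term, 2 within lanes 4 and 3 and 0 without pairing by time, and 7 with 12 h moved to the middle phase.

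In the cell cycle, 4 of 18 G1 genes had a higher contrast, against 3.55% of all genes: those of Cdkn1b, the pocket protein gene Rbl2 and the cyclin G genes Ccng1 and Ccng2. Rbl2 read 18.7, 12.8 and 18.9 CPM in middle and 24.2, 30.9 and 40.9 CPM in late stimulated cells, against 20.8, 19.4 and 22.9 and 21.5, 20 and 26.8 CPM in untreated cells, and crossed from lower to higher with a contrast of 0.80 ± 0.14 (SE; edgeR adjusted p = 0.0099). The count was 3 without 2 h, 3 h or 24 h and 5 without 6 h or 48 h, and 0 with the lane term, 0 within lanes 4 and 3 and 0 without pairing by time. Of 39 replication genes 1 was called lower (Cdt1, -0.31 ± 0.07), against 3.19% of all genes, and of 35 genes of mitosis 0, by edgeR (7 at an unadjusted p under 0.05), against 1 by DESeq2 and 0 by limma. The replication count was 0 without 2 h, 3 h, 24 h or 48 h and 6 without 12 h, and 0 with the lane term, 0 within lanes 4 and 3 and 0 without pairing by time. In the late phase alone 12 of the 39 replication genes were called lower (background 18.3%).

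Immediate early and MAP kinase feedback genes had parted before the phases compared here, with median log2 ratios of 0.73 at 30 min and 1.08 at 1 h and of 0.25, -0.13 and 0.50 at 2, 6 and 48 h. Of 29 tested, Dusp4, a MAP kinase phosphatase, and Btg1, an anti-proliferative gene, had a higher contrast (background 3.55%). Dusp4 read 172, 177 and 114 CPM in middle and 102, 117 and 107 CPM in late stimulated cells, against 133, 102 and 41.8 and 30.5, 25.6 and 15 CPM in untreated cells, so the groups did not overlap in the late phase. Untreated cells changed by -1.98 (edgeR adjusted p = 0.011), and the value in stimulated cells was -0.53 (adjusted p = 0.35). Its contrast was 1.38 ± 0.31 (SE; edgeR adjusted p = 0.023), and neither gene was called without 2, 3, 24 or 48 h.

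The remaining lists held few called contrasts. Cholesterol synthesis had 1 of 23 (Cyp51, 0.73 ± 0.12), the unfolded protein response 2 of 25 (Edem1 higher at 0.24, Sel1l lower at -0.51), interferon stimulated genes 2 of 15 (Oasl2 at 2.33 among them) and p53 targets 2 of 21 (Fas and Ccng1). Genes of ATF4 and the aminoacyl-tRNA synthetases had 1 of 26, Ddit4, and plasma cell secretory genes 3 of 15. Heat shock chaperones had 0 of 13 by edgeR, DESeq2 or limma (0 at an unadjusted p under 0.05 by edgeR). Over all genes 6.74% were called.

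**Figure D5:**
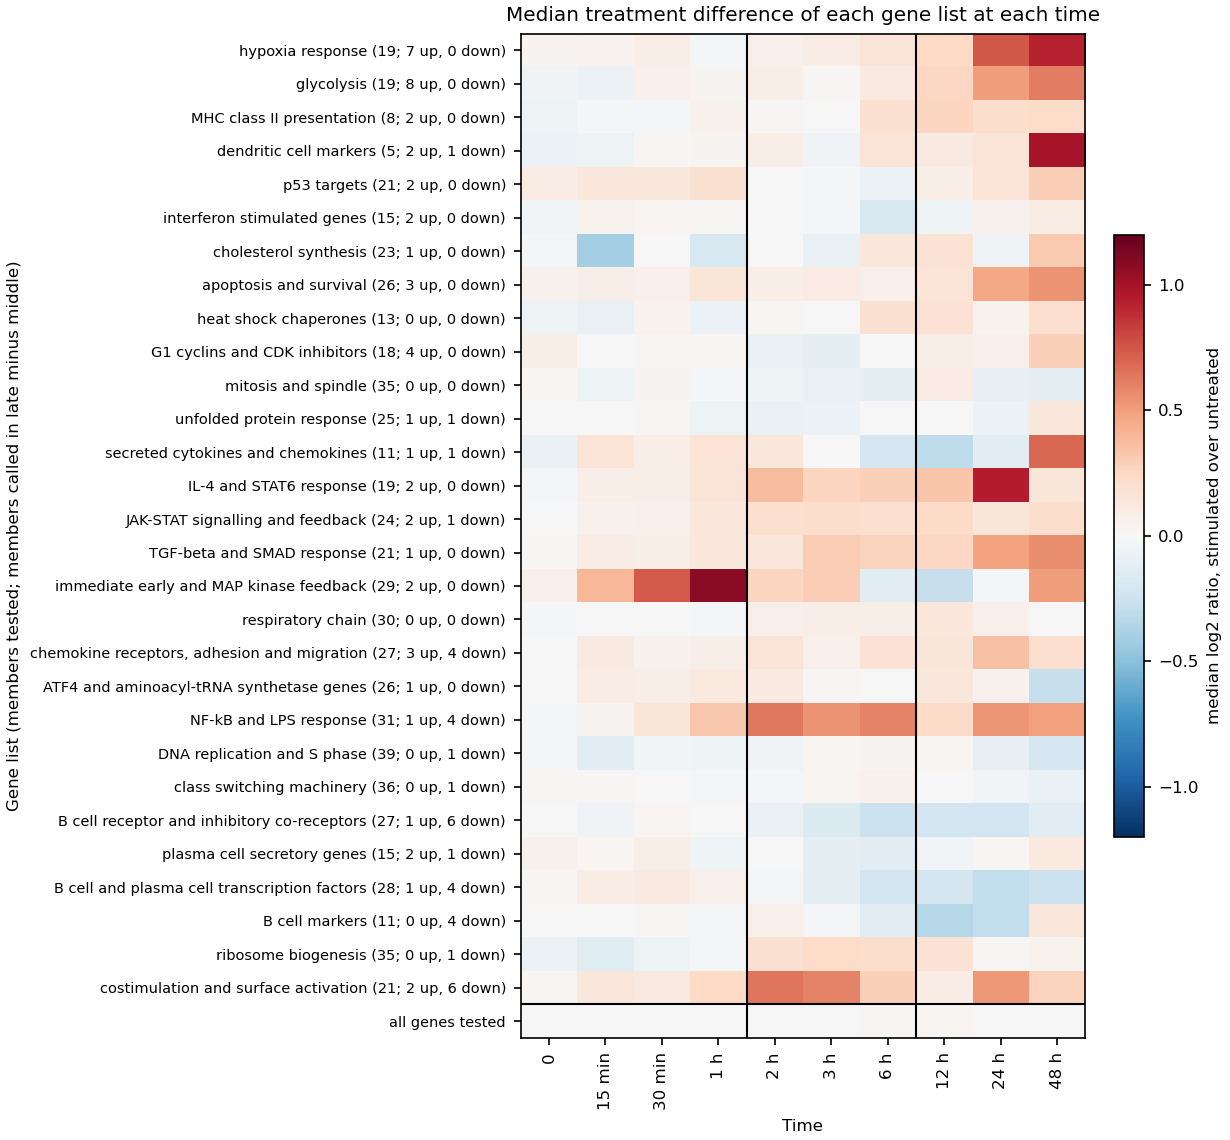
Median log2 ratio of stimulated over untreated CPM of each gene list at each of the 10 times, from blue (lower in stimulated cells) to red (higher), with vertical lines at the limits of the middle phase and list sizes and called members beside the names. Hypoxia response reaches 0.92 at 48 h, costimulation is highest at 2 h (0.65), and the row of all genes stays near zero.

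Other motifs are given by class beside their share of all windows. The NF-kB motif, searched by its usual degenerate form, was in 10.1% of the 9167 windows and in 38 of 264 growing inductions (14.4%), 1 of 32 fading inductions and 21 of 239 growing repressions (8.79%). The SMAD motif CAGAC was in 47.2% of all windows and in 47.7% of growing inductions, and the STAT motif, TTC and GAA spaced by 4 bases, in 5.13% and 4.17%. In the small classes the STAT motif was in 4 of 32 fading inductions and 2 of 9 genes that went from higher to lower, and of 15 genes that went from lower to higher 4 held the NF-kB motif, 10 the SMAD motif and 0 the STAT motif. The AP-1 motif TGANTCA was in 4.61% and 6.82%. Both strands were searched, and a match says only that the letters are present.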

How the data were processed

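Poly-A libraries (TruSeq, per the labels' protocols) were aligned with STAR and counted with HTSeq on GRCm38.p3 (mm10), per the submitters' processing notes; no source used here names versions or a strand setting, so overlapping and antisense genes cannot be told apart. The authors deposited raw counts per gene and library, with no normalization, and 41115 genes were listed. Genes with at least 1 CPM in 3 of the 18 libraries after 0 min were kept (12042).

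The contrast was tested with edgeR 4.0.16 (R 4.3.3) on the counts, with TMM scaling and the quasi-likelihood F-test, in 1 fit of the 18 libraries with time as a factor and an arm effect per phase (6 residual degrees of freedom). Benjamini-Hochberg adjustment ran over all 12042 genes, with a threshold of 0.05. Times stand in place of replicates. Changes within an arm came from a fit of 6 groups without time. A gene was put in a class from its contrast and its calls in the 2 phases. CPM values use TMM-scaled library sizes, and ratios add 0.5 CPM. The rule for named genes took in each class the 6 widest contrasts (4 for reversals) among called genes with a mean of at least 5 CPM and late ratios apart from middle ratios, and up to 4 called members per list. A few named items are not reported here. The members, the 35 gene lists and the tests were chosen with earlier results of these data known. The test was run on simulated counts with known changes, where it recovered nearly all of them and made more false calls than its threshold allows. DESeq2 1.42.0 and limma 3.58.1 served as alternatives, beside other scalings, filters, samples, phase limits and lane terms. Promoter windows are RefSeq's (GRCm38.p6), and gene positions are GENCODE's on GRCm38.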

Additional observations from a re-analysis of the deposited data

Results flagged for a closer look

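The late minus middle contrast is itself a test of a difference between 2 phases, so every called gene differs between groups of times. The genes picked out here are the 8 named ones whose treatment difference was called in opposite directions in the 2 phases, each value being a log2 difference of stimulated minus untreated cells with the SE of the contrast. From lower to higher went Ahnak, from -0.64 to 0.84 (contrast 1.48 ± 0.24), Thbs3, from -0.81 to 0.59 (contrast 1.40 ± 0.28), Ccng2, from -0.67 to 0.53 (contrast 1.2 ± 0.19), and Tsc22d3, from -0.66 to 0.47 (contrast 1.13 ± 0.12). From higher to lower went Sytl3, from 0.63 to -0.60 (contrast -1.23 ± 0.16), Efnb1, from 0.42 to -0.43 (contrast -0.85 ± 0.14), Tlr1, from 0.39 to -0.29 (contrast -0.69 ± 0.07), and Ehd1, from 0.41 to -0.23 (contrast -0.64 ± 0.09). Without pairing by time none of the 8 was called by edgeR. Each arm is 1 animal, and with 3 times a group no library could be tested for standing apart.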

How the results depend on the processing

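Over 19 alternative settings all 812 called genes that were tested kept the sign of the contrast, and no named gene reversed. The 812 were called on the contrast from these same libraries, so kept signs are no separate test. Most counts depended strongly on the design. Without pairing by time (the fit with no block for the shared time) the contrast was called in 41 genes (16 higher, 25 lower; 39 growing, 2 fading, 0 reversed), the middle difference in 247 and the late one in 1447, by edgeR; 0 reversed genes compares with 29 as reported. With only the 12 middle and late libraries the counts were 266 (148 higher, 118 lower; 236, 17 and 13 in the classes) and 1530 in the middle phase. With lane as an additive term they were 44 (25 higher, 19 lower). Within lanes 4 and 3 they were 227 (160 higher, 67 lower; 200, 13 and 14), 1039 in the middle and 1732 in the late phase. With no filter on low counts they were 1631 (1010 higher, 621 lower; 1324, 203 and 54), and that fit's adjusted p was the smallest of all fits in 76 of the 80 named genes (for Cd22 6.4e-92, against 3.1e-06 to 0.28 in the other alternatives), while Cdt1, Edem1 and Polr1b were not called in it (adjusted p = 0.076, 0.064 and 0.10). Moving 6 h to the late phase left 1201 middle calls, and moving 12 h to the middle phase gave 3780, with 183 fading and 58 reversed genes. With 12 h so moved the contrasts of Il2ra, Itga4, Syk and Nfkb1 were -0.65, -0.54, -0.40 and -0.22.

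Leaving out 1 time gave 193 to 1617 called contrasts (104 to 953 higher, 89 to 664 lower; 179 to 1293 growing, 8 to 219 fading, 6 to 66 reversed), 900 to 3022 middle and 3073 to 4522 late calls. Other scalings and count models moved less: 813 with DESeq2's size factors, 821 with library totals, 1090 with DESeq2 and 830 with limma-voom, with 748 to 780 of the 812 among them. The share of higher calls was 52.7% as reported and 57.3% and 60.8% under those 2 scalings. It was 39.0% without pairing by time, 48.1% with 6 h moved to the late phase and 46.4% without 48 h. Lower calls were thus the more frequent in those settings. Of the 80 genes named by rule, 15 kept their side of the threshold with the lane term and 11 without pairing. The cause of these shifts was not tested. Some settings leave fewer libraries or degrees of freedom, and the part of this in the shifts was not tested either. No paired analysis was possible because no replicate number appears in the labels, other than the pairing by time used throughout. Each arm is 1 animal, so no setting separates treatment from animal. At these depths, 3 counts were worth at most 0.0737 CPM in the 12 libraries.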
